A study of Mus musculus with 95 samples.

Results

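Bdnf, Ntf3, Ntrk2 and Ntrk3 were followed by name through the cortical messenger RNA of mice with a Huntington's disease allele. These 4 genes encode a pair of neurotrophins and the receptors that bind them, and they were chosen by symbol from the 39179 genes of the deposited table. All 4 passed the filter on low counts at both ages. Heterozygous knock-in mice of the lines Q20, Q50, Q92 and Q140, named after the CAG repeat length in the endogenous Htt gene, were compared with wild-type mice, all on the C57BL/6 strain, at 6 and 10 months. The wild types were housed with Q20 mice (WTwithQ20) or with Q50 mice (WTwithQ50). Q92 and Q140 mice were housed with mice of their own line, and wild types caged with those lines were not analysed here. Each of the 12 groups of line, housing and age held 4 female and 4 male libraries, except the Q140 group at 10 months with 4 and 3, for 95 libraries in all. The labels number the libraries without saying that each is a separate animal, so p-values measure the spread between libraries. The ages are separate groups of mice. The numbers that open the sample names also fall in a separate run at each age, and the labels do not explain them. A difference between the ages can therefore not be told apart from one between these runs.

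Brain-derived neurotrophic factor, the product of Bdnf, is a secreted survival and plasticity factor that activates the receptor tyrosine kinase TrkB, the product of Ntrk2. Cortical neurons make it in response to electrical activity and carry it along their axons to the striatum, which makes little of its own. This supply is the reason for the interest in Bdnf in Huntington's disease, and wild-type huntingtin is known to take part both in Bdnf transcription and in the transport of its vesicles. Ntf3 encodes neurotrophin-3, whose main receptor is TrkC, the product of Ntrk3. Ntrk2 and Ntrk3 each also give rise to truncated receptors without the kinase, and Bdnf is transcribed from several promoters. The gene-level values used here add these forms together.

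The mouse Bdnf gene has 7 start sites in the RefSeq promoter table (build GRCm38.p6), all on the plus strand of chromosome 2. The 250 bases before each start were searched on both strands for the core of the cyclic AMP response element, CGTCA, part of the sequence bound by CREB, the transcription factor through which neuronal activity reaches Bdnf. The window of the third start site, known as promoter IV and the best studied of the activity-dependent ones, was the only one of the 7 to hold this exact sequence. Variants of the sequence were not searched for. The window of promoter IV, chr2:109692186-109692435, is shown because Bdnf moved within groups with part of the activity-regulated genes, as described further on. A link between the motif and that pattern was not tested. The motif is in capitals and its first base lies 35 bases before the start.

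Bdnf promoter IV: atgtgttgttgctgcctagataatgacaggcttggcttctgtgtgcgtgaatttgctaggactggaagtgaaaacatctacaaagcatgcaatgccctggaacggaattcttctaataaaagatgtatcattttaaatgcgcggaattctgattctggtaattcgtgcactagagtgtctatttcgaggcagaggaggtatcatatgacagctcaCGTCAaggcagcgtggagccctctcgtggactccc

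The motif stood in 17.8% of all 32851 windows of this length, so a match describes the window and no more. It was found in neither of the 2 Ntf3 windows on chromosome 6 nor in the 1 Ntrk2 window on chromosome 13. The counts of these libraries do not tell the Bdnf promoters apart.

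Library totals lay between 30.3 M and 41.1 M estimated counts. All 17 cortical excitatory neuron markers were detected in every library, among them Slc17a7, the vesicular glutamate transporter, at 329 FPKM (the authors' length-scaled unit) on average. Mitochondrial transcripts took 9.08% to 14.7% of the counts, and 2 libraries were above 13%, replicate 4 of the female Q50 mice and replicate 3 of the male Q92 mice, both at 6 months. Htt itself stood at 196 ± 13.9 CPM (library-size scaled counts, TMM; SD, n = 7) in Q140 and 221 ± 19.6 (n = 16) in wild types at 10 months, a log2 change of -0.17 ± 0.045 (SE; edgeR quasi-likelihood test, adjusted p = 0.040), a call lost on leaving out any 1 of 15 of the 47 libraries.

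Per length, Ntrk2 was the most abundant of the 4 transcripts, with 92.3 ± 6.60 FPKM (SD, n = 95). Ntrk3 followed with 17.2 ± 1.45 FPKM and Bdnf with 7.40 ± 1.25 FPKM, while Ntf3 was scarce at 0.778 ± 0.220 FPKM. The counts behind these levels set their precision. A library held between 17981 and 28485 counts of Ntrk2 and between 1056 and 1920 of Ntrk3. It held 531 to 1388 counts of Bdnf but only 15 to 82 of Ntf3.

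**Figure D1:**
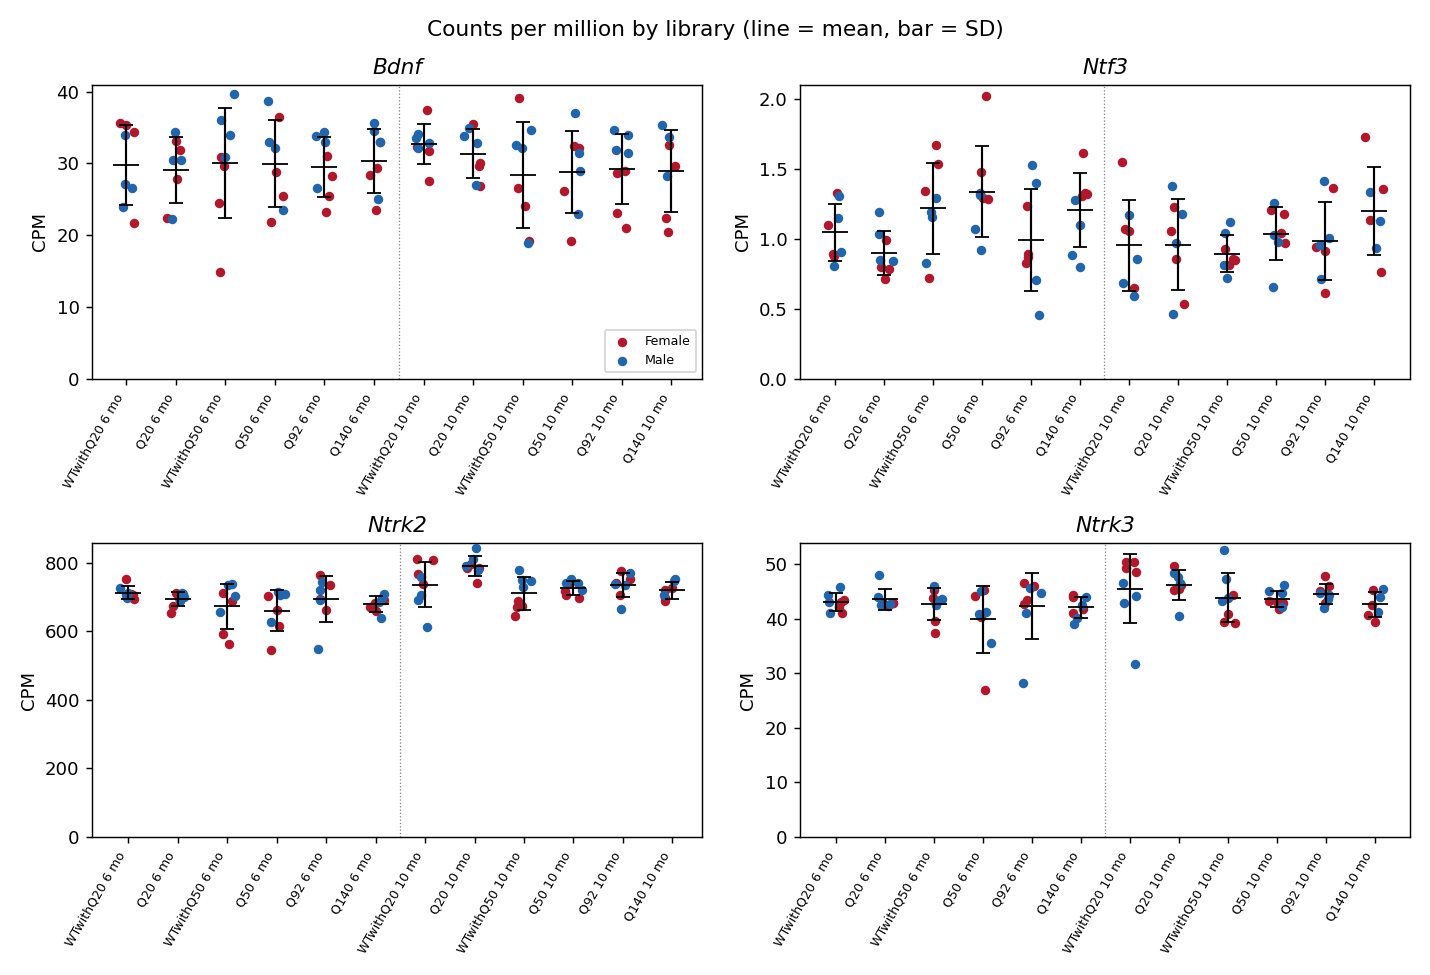
CPM of the 4 genes in each of 95 libraries, by line, housing and age (6 months left of the dotted line, 10 months right; mo, months). Points are libraries coloured by sex, horizontal lines are group means and bars are SD; the Bdnf means lie between 28.4 and 32.7 CPM in every group.

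Bdnf mRNA was level across the allelic series. In the wild types housed with Q20 mice it ranged from 21.7 to 35.6 CPM with a median of 30.5 at 6 months, and from 27.5 to 37.4 with a median of 32.6 at 10 months. In those housed with Q50 mice it ranged from 14.8 to 39.7 (median 30.9) at 6 months and from 18.9 to 39.0 (median 29.4) at 10 months. The second wild-type group thus held both the lowest and the highest Bdnf values of the whole series. Q140 mice, with the longest repeat, lay between 23.5 and 35.6 CPM (median 31.1) at 6 months and between 20.5 and 35.4 (median 29.7) at 10 months. Q92 mice lay between 23.2 and 34.4 (median 29.6) and between 21.1 and 34.7 (median 30.2) at these ages. Every knock-in group lay inside the range of the wild types. Q50 mice spanned 21.8 to 38.6 CPM (median 30.5) at 6 months and 19.2 to 37.0 (median 30.2) at 10 months. Q20 mice spanned 22.2 to 34.4 (median 30.5) and 26.8 to 35.4 (median 31.5). The highest of the 12 group means was 1.15 times the lowest, and of the 11 neighbouring pairs in their order none was apart by more than the larger SD of the pair.

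None of the 4 genes was called in any of the 8 tests of a line, at either age, against wild type (edgeR quasi-likelihood test, adjusted p under 0.05 over all genes), and none was by DESeq2's Wald test or limma voom. At an unadjusted p under 0.05 there were 2, Ntf3 in Q140 and Ntrk2 in Q20, both at 10 months. Over all genes the called share at 6 months was 0.0169% for Q20, 0.0226% for Q50, 7.83% for Q92 and 3.52% for Q140. At 10 months it was 4.35% for Q20, 0.0561% for Q50, 0.853% for Q92 and 1.2% for Q140. For Bdnf the log2 change at 6 months was -0.04 ± 0.13 (SE) in Q20, 0.0017 ± 0.13 in Q50, -0.02 ± 0.12 in Q92 and 0.02 ± 0.12 in Q140. At 10 months it was -0.07 ± 0.12 in Q20, 0.01 ± 0.12 in Q50, -0.07 ± 0.11 in Q92 and -0.07 ± 0.11 in Q140. Across the 8 comparisons no adjusted p of Bdnf was below 0.80 and no unadjusted p was below 0.51. The 95% intervals bound what could have been missed. Over the 8 comparisons their lowest end was -0.31 and their highest 0.27 log2 units. In Q140 at 10 months the interval ran from -18.5% to 11.5% of the wild-type level, and at 6 months from -13.7% to 19.3%. In Q50 at 6 months it ran from -16.99% to 20.8%.

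**Figure D2:**
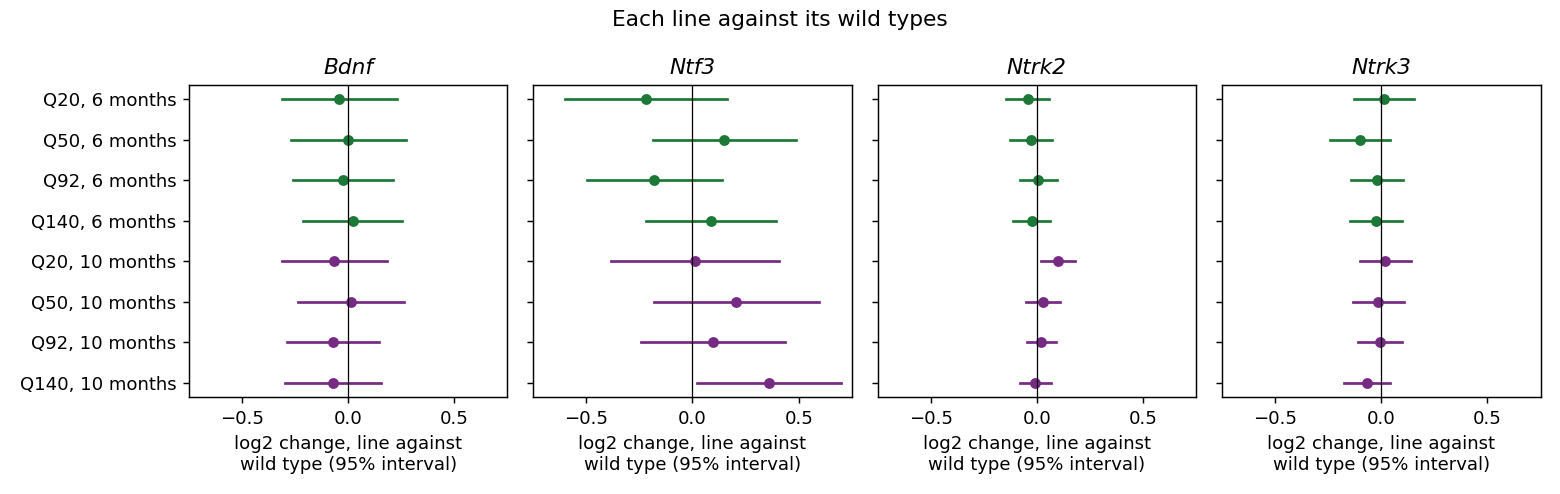
Log2 change of each gene in each knock-in line against its wild types (x axis; points are estimates, lines 95% intervals), with 6 months in green and 10 months in purple. All 8 Bdnf intervals include 0, and the 2 intervals that do not are those of Ntf3 in Q140 and of Ntrk2 in Q20, both at 10 months.

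Ntf3 was the gene with the largest estimated line difference, and the least certain. In Q140 mice at 10 months it ranged from 0.764 to 1.73 CPM with a median of 1.13 (n = 7), and 6 of 7 libraries were above the wild-type mean. The wild types of that age ranged from 0.722 to 1.12 CPM in the group housed with Q50 mice, with a median of 0.851, and from 0.590 to 1.55 in the group housed with Q20 mice, with a median of 0.956. The groups overlapped. The log2 change was 0.36 ± 0.17 with a 95% interval of 1.36% to 62.3% above wild type (edgeR, unadjusted p = 0.039, adjusted p = 0.35). At 6 months the same comparison gave 0.09 ± 0.15 (adjusted p = 0.87). In the other 3 lines the log2 change of Ntf3 lay between -0.22 in Q20 at 6 months and 0.21 in Q50 at 10 months.

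Ntrk2 and Ntrk3 were measured far more tightly. In Q20 mice at 10 months Ntrk2 ranged from 741 to 842 CPM with a median of 788, the highest of the 12 groups. Their wild-type cage mates ranged from 612 to 811 with a median of 749, so that all 8 Q20 libraries lay above the wild-type mean while the ranges overlapped. The log2 change was 0.10 ± 0.040 (edgeR, unadjusted p = 0.015, adjusted p = 0.13). Without replicate 2 of the female wild types housed with Q20 mice the Ntrk2 difference in Q20 was 0.12 and passed the threshold (adjusted p = 0.048). In males alone it was 0.22 (adjusted p = 0.0084) and in females alone -0.01 (adjusted p = 0.9996). In the other 7 comparisons of Ntrk2 the log2 change lay between -0.04 and 0.03. For Ntrk3 the 8 changes lay between -0.10 in Q50 at 6 months and 0.02 in Q20 at 10 months, and the lowest unadjusted p was 0.17.

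A gradient with repeat length was tested over the 4 knock-in lines alone. At 10 months Ntrk2 changed by -0.09 ± 0.026 log2 units per 100 repeats (edgeR, unadjusted p = 0.0014, adjusted p = 0.090), which missed the threshold passed by 0.891% of all genes. The slope passed it in 3 alternatives, with 3 surrogate variables (adjusted p = 0.024), in DESeq2's Wald test (0.031) and in limma voom (0.049). The group means of Ntrk2 at that age were 791 ± 28.7 CPM (SD, n = 8) in Q20, 728 ± 20.0 in Q50, 735 ± 36.0 in Q92 and 720 ± 24.2 (n = 7) in Q140, so the Q20 mean stood above the other 3. Ntrk3 sloped by -0.07 ± 0.031 (adjusted p = 0.30). The slopes of Bdnf and Ntf3 were -0.07 ± 0.088 (adjusted p = 0.80) and 0.22 ± 0.15 (adjusted p = 0.58). At 6 months, where 1.78% of all genes were called, the slopes of the 4 genes lay between -0.0044 and 0.15 and the lowest adjusted p was 0.86.

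Of the 2 receptor genes Ntrk2 differed between wild types by sex and housing at 10 months, and Ntrk3 passed or not by method. Ntrk2 in females housed with Q20 mice stood at 739, 768, 808 and 811 CPM, and in males of that housing at 612, 690, 704.6 and 759. In the wild types housed with Q50 mice the order of the sexes was the opposite, with 644, 671, 675 and 690 CPM in females and 729, 746, 751 and 780 in males. The sexes did not overlap in the second group and overlapped in 1 male library in the first. The difference of the differences, males minus females, was -0.34 ± 0.064 log2 units (edgeR, adjusted p = 0.026). Ntrk2 was among only 4 genes, 0.0225% of those tested, to pass in that contrast, which was chosen after the data were seen. The contrast rests on 4 libraries of each sex and housing, and it was not repeated with single libraries left out.

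Ntrk3 stood at 48.7 to 50.5 CPM in females and 31.8 to 46.5 in males housed with Q20 mice, against 39.2 to 44.4 in females and 43.2 to 52.6 in males housed with Q50 mice. Its difference of differences was -0.45 ± 0.10 (edgeR, adjusted p = 0.094). It passed the threshold in 1 of 2 alternatives, DESeq2's Wald test and limma voom. With both sexes in 1 test neither gene differed between the wild-type groups, by 0.05 ± 0.040 for Ntrk2 (adjusted p = 0.51) and 0.05 ± 0.059 for Ntrk3 (adjusted p = 0.67). At that age 7.03% of all genes were called between these groups of the same genotype, and at 6 months 0.0903%, with none of the 4 genes among them. Beside this, wild types from the Q20 cages had the lowest level of striatal projection neuron markers at 10 months, 3.31 to 3.91 mean log2 CPM of 28 genes against 3.59 to 5.43 in those housed with Q50 mice. The part of this marker difference in the contrast by sex was not tested. None of the 4 genes was called between the wild types or in any line comparison, with or without the striatal level as a covariate. The contrast by sex was not run with this covariate.

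Ntrk2 was higher at 10 months than at 6 months, in libraries whose sample numbers also differ by age. In Q20 mice Ntrk2 ranged from 654 to 713 CPM with a median of 699 at 6 months and from 741 to 842 with a median of 788 at 10 months. The ages did not overlap. The log2 change was 0.19 ± 0.047 (edgeR, adjusted p = 0.0027), in a comparison with 15.3% of all genes called. In Q50 mice, where 25.4% of all genes were called, Ntrk2 went from 545 to 716 CPM (median 683) to 698 to 754 (median 730), a log2 change of 0.14 ± 0.047 (adjusted p = 0.020). That second call was lost without replicate 4 of the female Q50 mice at 6 months, a library high in mitochondrial counts (log2 change 0.11, adjusted p = 0.11), and without replicate 3 of the males of that group (0.12, adjusted p = 0.053).

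Over all 6 groups of line and housing Ntrk2 rose by 0.10 ± 0.019 log2 units from 6 to 10 months (adjusted p = 3.4e-06) and had a positive estimate in each of them, from 0.05 to 0.19. In the groups where it was not called the share of all genes called was 9.17% in WTwithQ20, 18.4% in WTwithQ50, 25.2% in Q92, 17.4% in Q140 and 23% for both wild types. Ntrk3 rose by 0.07 ± 0.027 (adjusted p = 0.023), from 42.3 ± 3.89 CPM (SD, n = 48) to 44.5 ± 3.62 (n = 47). This mean over groups was chosen after the data were seen. It called 49.1% of all genes, and 2 of 4 is a share near that background. Without the 2 libraries rich in mitochondrial counts the changes were 0.09 for Ntrk2 (adjusted p = 2.7e-06) and 0.05 for Ntrk3 (adjusted p = 0.046). Bdnf changed by 0.0061 ± 0.054 (adjusted p = 0.94; 95% interval -0.10 to 0.11). Ntf3 changed by -0.15 ± 0.077 (adjusted p = 0.11), with its lowest estimate in the wild types housed with Q50 mice, -0.43 ± 0.19 (adjusted p = 0.093). No difference in age change between a line and its wild types was called for any of the 4 genes. The shares of all genes called in those contrasts were 0.693% for Q20, 0% for Q50, 9.63% for Q92 and 1.79% for Q140. The lowest adjusted p among them was that of Ntrk2 in Q20, 0.30, with a log2 difference of 0.14 ± 0.066.

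**Figure D3:**
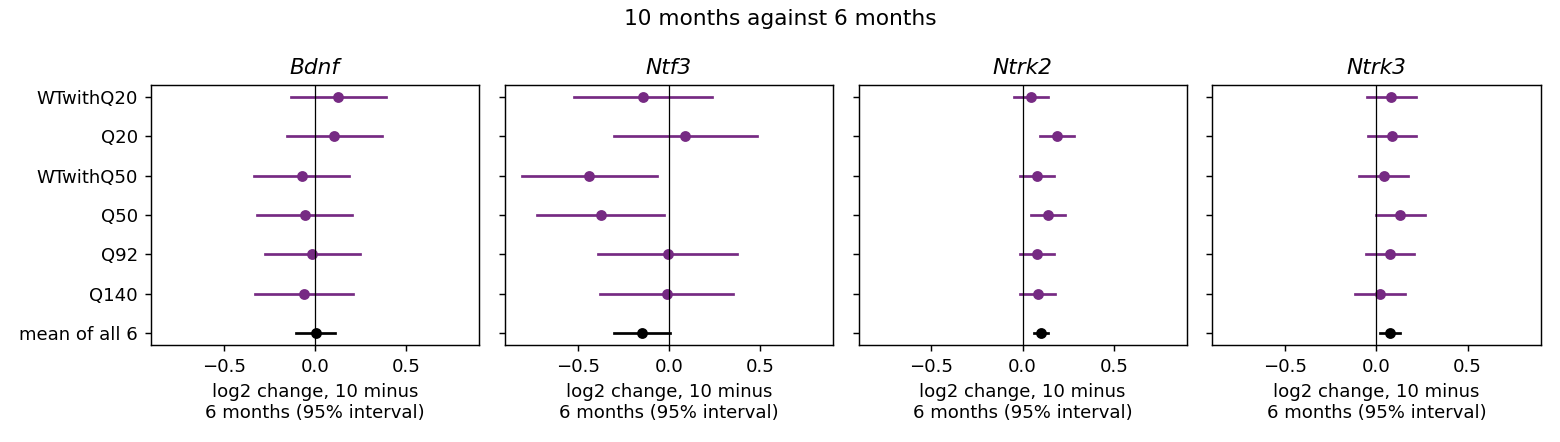
Log2 change from 6 to 10 months in each group of line and housing (purple) and in the mean of all 6 (black), with 95% intervals, for the 4 genes. The Ntrk2 estimate is positive in each group, from 0.05 to 0.19, while those of Bdnf lie on both sides of 0.

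The level Bdnf stood beside a fall of activity-regulated genes with age. Of the 27 genes of that list, 14 fell and 0 rose over the 6 groups, where 24.3% of all genes fell and 24.8% rose. Junb, a subunit of the AP-1 transcription factor, fell from 56.1 ± 15.3 to 29.6 ± 12.6 CPM, and Egr4, an early growth response factor, from 18.7 ± 4.41 to 10.9 ± 3.90 CPM. Arc, the synaptic immediate early gene, fell from 326 ± 96.8 to 259 ± 106 CPM. Of the 31 genes known to respond to BDNF, 11 fell and 2 rose. Of these 11 falls 7 were of genes also counted in the activity-regulated list, and 4 were not. The smallest p was that of Sst, the neuropeptide somatostatin, which fell from 118 ± 14.2 to 93.6 ± 11.2 CPM. These genes were named after their values were seen. Of 13 astrocyte markers, a cell type that carries much of the truncated TrkB, 4 rose and 3 fell.

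Bdnf was higher in males. Males ranged from 18.9 to 39.7 CPM with a median of 32.9 and a mean of 31.5 ± 4.43 (SD, n = 47). Females ranged from 14.8 to 39.0 with a median of 28.7 and a mean of 28.2 ± 5.39 (n = 48). The ranges overlapped almost fully, but the male mean was the higher in 11 of the 12 groups of line, housing and age. The exception was the wild types housed with Q20 mice at 6 months, with 27.9 ± 4.27 CPM in males and 31.7 ± 6.70 in females (n = 4 each). At 6 months the log2 difference was 0.15 ± 0.078 (edgeR, adjusted p = 0.39) and at 10 months 0.17 ± 0.072 (unadjusted p = 0.025, adjusted p = 0.20), with 2.37% and 3.49% of all genes called.

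Over both ages, a contrast chosen after the data were seen, the difference of Bdnf between males and females was 0.16 ± 0.054 log2 units (adjusted p = 0.040), with 9.75% of all genes called. The call was close to the threshold. It was lost on leaving out any 1 of 32 of the 95 libraries, with a log2 difference between 0.14 and 0.18 over all 95 omissions and an adjusted p of up to 0.065. It was also lost without the 2 libraries rich in mitochondrial counts (0.15, adjusted p = 0.059) and without a filter on low counts (0.16, adjusted p = 0.072). Ntf3, Ntrk2 and Ntrk3 differed between the sexes by -0.11 ± 0.078, 0.03 ± 0.019 and -0.0040 ± 0.028, and none was called. Choroid plexus markers moved with sex too: 10 of 11 were higher in males, with a mean log2 CPM of 0.48 to 5.64 (median 3.50) in males and 0.20 to 4.70 (median 1.12) in females, and of 17 myelin markers 8 were lower and 1 higher. Of the choroid plexus markers Slc4a5 and Steap1 were each listed at 0 FPKM in 1 library. Their part in the Bdnf difference was not tested.

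**Figure D4:**
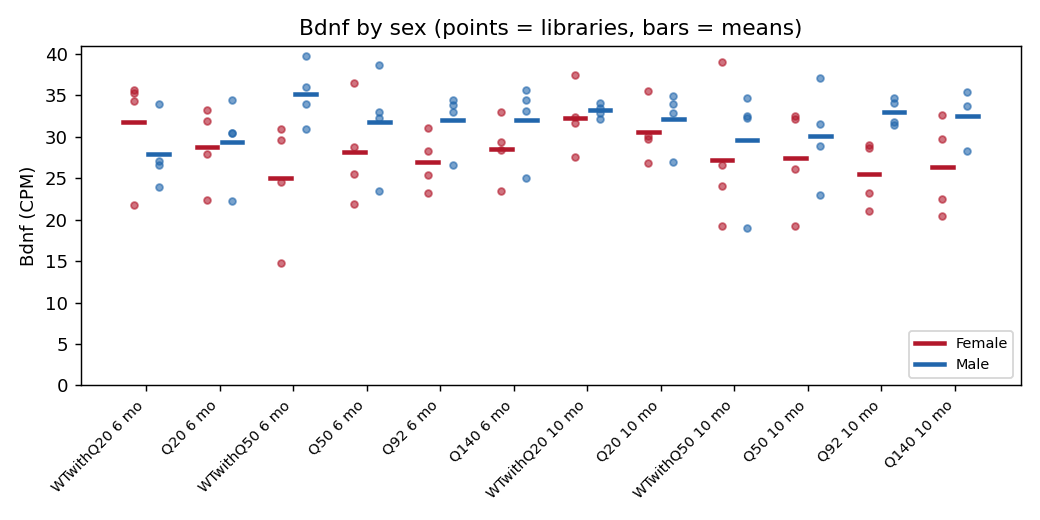
Bdnf in CPM by sex in each group of line, housing and age (mo, months). Points are libraries and thick lines are the means of each sex; the male mean is the higher in 11 of the 12 groups.

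Of the 31 genes known to respond to BDNF 7 were also higher in males and 0 lower, where 5.17% of all genes were higher and 4.59% lower. They were Spred3, Spry4 and Spred1, feedback inhibitors of the Ras and ERK pathway, the secreted neuropeptide precursor Vgf, the transcription factor Egr3, the synaptic scaffold gene Homer1 and the pentraxin gene Nptx2, and they were named after their values were seen. Homer1 stood at 213 ± 47.5 CPM in males and 180 ± 52.2 in females, a log2 difference of 0.24 ± 0.075 (adjusted p = 0.025). Vgf stood at 124 ± 21.7 and 109 ± 25.4 CPM, a difference of 0.18 ± 0.048 (adjusted p = 0.0081). Of the activity-regulated list 3 of 27 were higher in males, Egr3, Homer1 and Nptx2, all on both lists. With the mean level of the activity-regulated list as a covariate the sex difference of Bdnf was 0.11 (adjusted p = 0.12).

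Within groups, Bdnf moved with a set of activity- and growth-factor-induced genes. After the mean of each group of line, age and sex was subtracted, the 5 genes most like Bdnf among 11789 with at least 5 CPM were Klf10, Homer1, Nr4a3, Spry4 and P4ha1, with Pearson's r of 0.88, 0.87, 0.87, 0.86 and 0.85 over the 95 libraries and Spearman's rho of 0.80 to 0.86. Klf10 encodes a growth-factor-induced zinc finger repressor, Nr4a3 an orphan nuclear receptor of the immediate early class, Spry4 an inhibitor of ERK signalling and P4ha1 a subunit of collagen prolyl hydroxylase. In the library lowest in Bdnf, replicate 3 of the female wild types housed with Q50 mice at 6 months, the levels were 14.8 CPM of Bdnf, 20.0 of Klf10, 96.8 of Homer1 and 20.3 of Nr4a3. In the library highest in Bdnf, replicate 4 of the males of that group, they were 39.7, 42.3, 306 and 59.7 CPM. The correlations with Klf10 and Homer1 were 0.87 and 0.86 without the 2 libraries farthest from the median of Bdnf, and 0.87 and 0.84 with the L code in the names of the samples also removed. All points share the tissue and the library preparation, and no p is given.

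**Figure D5:**
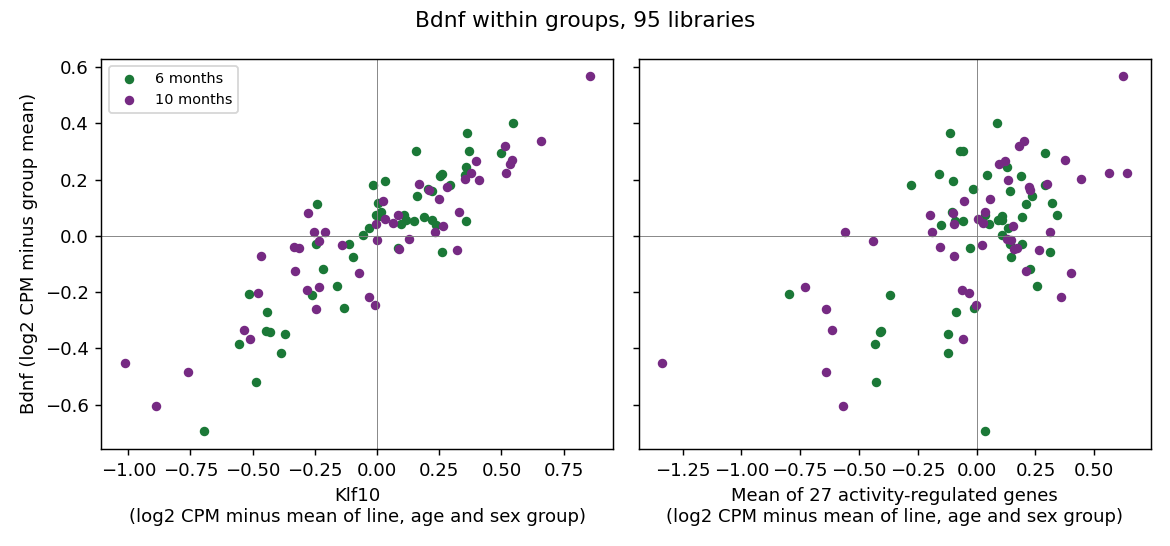
Bdnf (y axis) against Klf10 (left) and against the mean of 27 activity-regulated genes (right) in 95 libraries, each as log2 CPM minus the mean of its group of line, age and sex. Green points are 6 months and purple points 10 months; the correlation is 0.88 on the left and 0.55 on the right.

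The likeness did not extend to every activity-regulated gene. Of the 27 on the list 24 had a positive correlation with Bdnf and 14 were above 0.5, with a median of 0.54 against 0.045 over all genes. Ptgs2 and Egr1 stood at 0.77 and 0.75. Arc stood at 0.58 and Fos at 0.35, whereas Npas4, the neuronal activity-dependent factor known to bind Bdnf promoters, had -0.27. The correlation of Bdnf with Npas4 was -0.59 at 6 months and 0.17 at 10 months. With Fos it was 0.051 at 6 months and 0.56 at 10 months, and with Junb -0.018 and 0.42. Of the 31 BDNF-responsive genes 29 were positive, with a median of 0.59, and Dusp4 and Dusp5, phosphatases that switch off ERK, stood at 0.82 and 0.76. That list shares genes with the first, among them Homer1, Egr1, Arc and Fos. It also holds Klf10 and Spry4, named above as most like Bdnf. Both lists were chosen with earlier results of these data known, so their medians are not independent results. The library lowest in Bdnf, 0.70 log2 units below its group, lay 0.035 above its group in the level of the activity-regulated list.

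Ntrk2 and Ntrk3 moved together within groups (Pearson's r = 0.68, Spearman's rho = 0.47 over 95 libraries) and neither moved with Bdnf (r = -0.0030 and -0.18). The receptor correlation was 0.80 at 6 months and 0.39 at 10 months. Both receptors were lowest in the 2 libraries rich in mitochondrial counts, at 545 and 549 CPM of Ntrk2 and 26.9 and 28.1 CPM of Ntrk3, and they correlated negatively with the mitochondrial share (r = -0.48 and -0.62). Without the 2 libraries farthest in that share the values were -0.29 and -0.41. Sesn3, Cds2 and Tnks were among the genes most like Ntrk2, at 0.85 or 0.86 (rho of 0.68 to 0.76, and r of 0.81 without the 2 libraries farthest from the median of Ntrk2). Those most like Ntrk3 were Nsd1, a histone methyltransferase, Zzef1, the splicing cofactor Son, Pdpr and Fam173b, between 0.87 and 0.89. Their rho was lower, 0.66 to 0.72, and r was 0.78 to 0.81 without the 2 libraries farthest from the median of Ntrk3. Within groups 110 genes exceeded 0.7 with Bdnf, 427 with Ntrk2 and 639 with Ntrk3, so the named genes are the first of many. For Ntf3 no gene exceeded 0.7, and the first 5 were Hpcal1, Hopx, Marcksl1, Nr2f2 and Pgrmc1, between 0.57 and 0.64.

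Over the 12 means of line, housing and age the order of genes was another. There Bdnf was most like Schip1, Elmo2, Emx2, Gfod1 and Pnpla7 (r of 0.91 to 0.94), but without the 2 most extreme groups Gfod1 and Pnpla7 were at 0.54 and 0.55. Ntf3 was most like Col23a1, Fxyd6, Syt17, Mapk3 and Ephb4 (0.88 to 0.91). Ntrk2 was most like Trim2, Heatr5a, Zdhhc5, Myo6 and Arl14ep (all 0.96) and Ntrk3 like Nrd1, Zfp398, Cers6, Nwd1 and Sik3 (0.93 to 0.94). With 12 points such values arise easily: 1830 genes exceeded 0.7 with Ntrk2, 1229 with Ntrk3, 221 with Bdnf and 86 with Ntf3.

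Other ligands and receptors were called in comparisons where none of the 4 genes was. Of this list of 11 genes 10 were tested at each age. Sort1, the sorting receptor sortilin, was the most abundant at 92.2 ± 6.40 FPKM (SD, n = 95), while Ngfr, the p75 receptor, stood at 0.775 ± 0.430 FPKM. In Q92 mice at 6 months 4 of 10 fell and 0 rose, where 4.53% of all genes fell and 3.3% rose. Ngfr fell from 3.55 ± 1.28 to 1.45 ± 0.323 CPM, by 1.246 ± 0.21 on the log2 scale. Lrig1, a membrane protein that restrains receptor tyrosine kinases, fell by 0.26 ± 0.058 and Sorcs2, a proneurotrophin co-receptor, by 0.14 ± 0.041. In Q140 mice of that age, with 2.13% of all genes falling and 1.39% rising, 2 fell, among them Ngfr, by 1.33 ± 0.21.

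The forebrain cholinergic markers, a list that itself holds Ngfr, moved with these falls. All 7 tested fell in Q92 and in Q140 at 6 months. Their mean log2 CPM lay between -2.38 and -1.19 in Q92 and between -2.52 and -0.86 in Q140, against 0.99 to 2.06 in wild types housed with Q20 mice and 0.08 to 1.46 in those housed with Q50 mice. Lhx8, a defining factor of these neurons, was listed at 0 FPKM in 14 of the 95 libraries. Striatal projection neuron markers fell in 27 of 28 in both lines. In the opposite direction, 6 of 7 cholinergic and 24 of 28 striatal markers rose in Q20 mice at 10 months, where 2.56% of all genes rose and 1.79% fell. Lrig1 rose there by 0.26 ± 0.074. With the wild-type group of the Q50 cages in place of their own cage mates, the value of Lrig1 in Q20 was 0.04 (adjusted p = 0.85). With the striatal level as a covariate all of these receptor calls were lost, with Ngfr at -0.30 in Q92 (adjusted p = 0.95) and -0.51 in Q140 (adjusted p = 0.47). At 6 months that level was itself 3.35 to 3.78 in Q92 and 3.28 to 4.21 in Q140. It was 4.79 to 5.42 in wild types housed with Q20 mice and 4.18 to 4.81 in those housed with Q50 mice. A covariate so close to the line grouping takes up much of a line difference, so a loss cannot show its source. In bulk tissue fewer cells of a type and less RNA per cell cannot be told apart. Low levels were also not limited to knock-in mice. At 10 months the cholinergic level was -2.56 to -1.68 in wild types housed with Q20 mice. In those housed with Q50 mice it was -1.51 to 2.03. The striatal level at that age was 3.31 to 3.91 and 3.59 to 5.43 in these wild-type groups. The source of these marker levels was not tested. In Q140 at 10 months, where 0 of these markers were called but 11 of 17 myelin markers fell (0.719% of all genes fell and 0.477% rose), Slitrk5, a TrkB-binding membrane protein, rose by 0.15 ± 0.037 (adjusted p = 0.025). That call was lost without replicate 2 of the Q140 females (0.14, adjusted p = 0.073) or replicate 1 of the males (0.15, adjusted p = 0.053).

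Of the genes downstream of the receptors, 0 to 2 were called in each direction in a line comparison. Of 54 Trk signalling genes 2 rose and 1 fell in Q92 at 6 months, where 3.3% of all genes rose and 4.53% fell. In Q140 of that age 1 rose and 0 fell, where 1.39% rose and 2.13% fell. At 10 months 1 rose and 2 fell in Q20, beside 2.56% and 1.79% of all genes, and 1 rose and 1 fell in Q140, beside 0.477% and 0.719%. In Q140 at 10 months Akt2, a kinase of the survival pathway, fell from 106 ± 8.87 to 93.7 ± 3.78 CPM (log2 change -0.18 ± 0.038, adjusted p = 0.0076). Mapk3, which encodes ERK1, rose there from 129 ± 8.48 to 152 ± 16.6 CPM (0.24 ± 0.057, adjusted p = 0.019), while in Q92 at 6 months it fell by 0.14 ± 0.046. Camk2g, a calcium-dependent kinase subunit, rose by 0.16 ± 0.030 in Q92 at 6 months and fell by 0.16 ± 0.046 in Q20 at 10 months. Pik3r1 in Q92 and Shc2 in Q140 rose at 6 months, and Map2k5 fell and Sos2 rose in Q20 at 10 months, each by 0.10 to 0.16. The Mapk3 call in Q140 was lost without replicate 2 (0.22, adjusted p = 0.059) or 4 (0.19, adjusted p = 0.12) of the Q140 females.

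Genes of Bdnf transport and transcription gave a few calls. Of 19 transport genes 2 rose and 2 fell in Q92 at 6 months, the line comparison with the most calls over all genes (3.3% rose and 4.53% fell). Hap1, the huntingtin-associated adaptor of Bdnf vesicles, fell from 150 ± 23.7 to 87.6 ± 8.90 CPM (log2 change -0.78 ± 0.12, adjusted p = 2.7e-05), and its binding partner Ahi1 fell by 0.26 ± 0.048. Sytl2 rose by 0.29 ± 0.050 in Q92 and by 0.19 ± 0.051 in Q140, and Klc2, a kinesin light chain, by 0.09 ± 0.030 in Q92. At 10 months Sytl1 fell in Q20 and in Q140, Htt in Q140, and Dctn2 and Klc1, dynactin and kinesin subunits, in Q20. At that age 1.79% of all genes fell in Q20 and 0.719% in Q140. Of 27 Bdnf transcription regulators Mef2c and Tcf4 rose in both Q92 and Q140 at 6 months, by 0.14 to 0.22. In Q140 of that age 1.39% of all genes rose and 2.13% fell. Arnt2 rose by 0.12 ± 0.037 in Q140 (adjusted p = 0.048, lost on leaving out any 1 of 32 of the 48 libraries). In Q92 Npas4 rose by 0.57 ± 0.19 (adjusted p = 0.0499, lost on leaving out any 1 of 31 of the 48 libraries) and Sin3a fell by 0.14 ± 0.041. Bdnf itself differed by -0.02 and 0.02 log2 units in these comparisons.

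Proneurotrophin processing genes and the targets of BDNF completed the lists. Of 14 processing genes tested at 6 months Syt6 fell in both Q92 and Q140, from 31.3 ± 8.78 CPM to 16.95 ± 2.39 and 17.3 ± 1.66, and rose in Q20 at 10 months. Syt6 is also on the list of cortical excitatory neuron markers. Pcsk2, a prohormone convertase, rose by 0.15 ± 0.033 in Q92. At 6 months 4.53% of all genes fell and 3.3% rose in Q92, and 2.13% fell and 1.39% rose in Q140. Of 31 BDNF-responsive genes Tac1, also a striatal marker, fell by 1.48 ± 0.17 in Q92 and by 1.28 ± 0.17 in Q140 at 6 months, Scg2, a granule protein, fell in both, and Lmo7 fell in Q92. Tac1 and Lmo7 rose in Q20 at 10 months, where 2.56% of all genes rose and 1.79% fell. In Q140 at 10 months Nptx2 alone of this list was called, falling from 40.9 ± 7.62 to 31.3 ± 3.84 CPM (log2 change -0.37 ± 0.087, adjusted p = 0.017), and all 7 Q140 libraries lay below the wild-type mean. Without replicate 2 or 4 of the Q140 females the adjusted p was 0.058 or 0.052. The median log2 change of the 31 genes was -0.03 in that comparison, against -0.00098 over all genes, of which 0.719% fell and 0.477% rose. Of 44 calls of pathway genes in line comparisons 38 were lost with the striatal level as a covariate. The 6 that passed were all from Q140 at 10 months: Akt2, Mapk3, Nptx2, Slitrk5, Sytl1 and Htt. The striatal level nearly separated Q92 and Q140 from wild types at 6 months, so the losses there cannot show a source. In females alone 31 of the 44 were lost, in males alone 21, with the wild types housed with Q50 mice as the reference 24, and with the L code of the labels as a factor 21. Of the 44, 22 were lost on leaving out at least 1 single library, and that of Htt in 15 of 47 omissions.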

How the data were processed

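Per the labels' protocols, total RNA was extracted from frozen cortex with a Qiagen kit and sequenced as Illumina libraries of an enriched RNA fraction. Per the submitters' processing notes, CASAVA 1.8.2 was used. Aligner, counter, build, annotation and strand setting were not given in the sources used here. The authors deposited estimated counts per gene, of which 67.0% of the values above 0 were whole numbers, and FPKM per gene, scaled by length and depth. Symbols were paired with 37607 of 39179 gene IDs. Totals ran from 30.3 M to 41.1 M estimated counts (median 34.1 M), which sets the counting precision.

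Estimated counts were rounded and filtered with filterByExpr (minimum count 10), leaving 17716 genes at 6 months, 17813 at 10 months and 18187 over both. They were scaled by TMM and tested with the quasi-likelihood test of edgeR 4.0.16 in R 4.3.3, with sex as a term, Benjamini-Hochberg adjustment over all genes tested and a threshold of 0.05. Q20 and Q50 were compared with the wild types housed with them, and Q92 and Q140 with both wild-type groups averaged, so comparisons share controls. Repeat length was fitted without the wild types. The script was tested on simulated counts. FPKM was used for levels and, as log2(FPKM + 0.1) or log2(FPKM + 1) for genes with a mean of at least 0.5 FPKM, in limma 3.58.1 as an alternative. DESeq2 1.42.0, sva 3.50.0 with 3 surrogate variables, other filters, covariates and the omission of each library were also tried. Single libraries were not left out in the differences of differences by sex or by age.

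Likeness was the Pearson correlation of log2 CPM (prior count 1) over genes with a mean of at least 5 CPM, with names taken from the 5 most alike. Beside the 4 genes the text names called genes of the pathway lists, up to 6 per list and comparison, and markers. Some genes of these lists are not reported here. The members and the lists were chosen with earlier results of these data known. Same-numbered libraries of different groups had a median correlation of 0.021 at 6 months and -0.023 at 10 months. For libraries of unlike number it was -0.0049 and 0.0054. No pairing by number was visible, but such medians cannot exclude one. Sequences are from the RefSeq promoter table of GRCm38.p6, matched by symbol for 3 of the 4 genes.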

Additional observations from a re-analysis of the deposited data

Results flagged for a closer look

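Of 48 sets of libraries (4 genes in 12 groups of line, housing and age), 4 held a library apart from the rest by Dixon's criterion, and chance gives about 2.4. Ntrk2 stood at 549 CPM in replicate 3 of the male Q92 mice at 6 months, where the nearest library had 663 CPM. Ntrk3 in the same library was 28.1 CPM, with the nearest at 41.05. This library had 13.6% of its counts from mitochondrial transcripts. Ntrk3 stood at 31.8 CPM in replicate 2 of the male wild types housed with Q20 mice at 10 months, with the nearest at 42.9 CPM. In replicate 3 of the male Q20 mice at 6 months Ntrk3 was the highest of its group at 48.1 CPM, with the nearest at 44.0.

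The difference between males and females in Ntrk2 was not the same in the wild types of the 2 housings at 10 months. The difference of differences was -0.34 log2 units (edgeR, adjusted p = 0.026).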

How the results depend on the processing

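Values are log2 changes. A change of sign was counted only where the value was called, larger than its standard error, or called in the alternative. Of 1409 alternative values for Bdnf, Ntf3, Ntrk2 and Ntrk3 outside single-library omissions, 1386 kept direction and side of the threshold. With 3 surrogate variables Bdnf between the wild-type groups at 10 months was -0.078 in place of 0.20, and the Ntrk2 repeat slope at 10 months was -0.087, past the threshold, as it was with DESeq2 (-0.091) and voom (-0.088). For Ntrk2 at 10 months Q20 against wild type was -0.012 in females alone, 0.22 in males alone and 0.15 against the other wild-type group, and the wild types differed by 0.22 in females and -0.12 in males. Ntrk3 differed between the wild types by 0.28 in females alone. With the activity-regulated level as a covariate, a setting chosen after seeing the data, the age change over all groups was 0.12 for Bdnf (adjusted p = 0.030), -0.22 for Ntf3 (0.023) and 0.053 for Ntrk3 (0.13). That of Ntf3 was then -0.45 in Q50, -0.58 in the wild types housed with Q50 mice and -0.36 in both wild types. The age change of Ntrk3 over all groups was 0.052 on log2(FPKM + 0.1). The sex difference of Bdnf was 0.11 with that covariate, 0.16 without a filter and 0.15 without the 2 libraries richest in mitochondrial counts, a setting chosen after seeing the data, where the age change of Ntrk2 in Q50 was 0.11.

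Of 3420 values with 1 library left out 3385 stayed on their side of the threshold, and most of these were not called to begin with. A call was lost in 34 and gained in 1. The losses were 32 of 95 omissions for the sex difference of Bdnf and 2 of 16 for the age change of Ntrk2 in Q50. The sex difference of Bdnf ranged from 0.14 to 0.18, Ntrk2 in Q20 against wild type at 10 months from 0.068 to 0.13, and the age change of Ntrk2 in Q50 from 0.11 to 0.15. Among the pathway genes the striatal covariate gave 0.0013 for Lrig1, 0.0039 for Sorcs2 and -0.015 for Pcsk2 in Q92 at 6 months and -0.074 for Syt6 in Q20 at 10 months. The cause of these changes was not tested. The replicate block, on numbers with no visible pairing, changed none of 108 results of the 4 genes. It gave 0.10 for Ntrk2 with age and 0.16 for Bdnf with sex.

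The count of called genes moved by more than 1.5 times with the setting, from 7 to 2141 for Q92 at 6 months and from 14 to 1084 for Q140 at 10 months. Ntf3, with 15 to 82 counts per library, is the gene whose depth limits it most.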
